A study of Mus musculus with 20 samples.

Results

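The mechanosensing and acid-sensing channels of the sensory ganglia were described through 8 genes: the mechanically gated channels Piezo1 and Piezo2, the acid-sensing ion channel subunits Asic1, Asic2 and Asic3, and 3 membrane proteins associated with these channels, Stom, Stoml3 and Tmem150c. The genes were chosen by name, with earlier results of these data known. The older annotation of the deposited table lists them as Fam38a (Piezo1), Fam38b (Piezo2), Accn2 (Asic1), Accn1 (Asic2) and Accn3 (Asic3). All 8 were among the 29049 genes with a value, and 7 of the 8 were among the 14529 genes expressed highly enough to be tested; Stoml3 was not. The study compared dorsal root ganglia (DRG) that contain neurons of the pelvic organs with neighbouring ganglia that do not, and asked whether level or sex differences are already present before birth. Lumbar (L4-5) and sacral (L6-S1) DRG were dissected from the same 10 C57Bl/6 embryos at E18.5, 5 male and 5 female, which gave 20 bulk RNA-seq libraries in 4 groups of 5. All groups were of this wild-type strain, with no transgene, agent or surgery. Whole ganglia were homogenised, so each library mixed neurons, glia, vessels and connective tissue, and fewer cells of a type and less RNA per cell cannot be told apart. Donors are named by sex and number, M1 to M8 and F3 to F10.

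Piezo proteins form cation channels that open when the membrane is stretched or indented, and Piezo2 is the main transducer of touch and body position in large DRG neurons. Acid-sensing ion channels (ASICs) are sodium channels of the degenerin/epithelial sodium channel (DEG/ENaC) family that open when the extracellular fluid turns acid, and their subunits assemble in varying combinations. Stomatin-domain proteins such as Stom and Stoml3 lie in the inner leaflet of the membrane and modulate ASIC and Piezo currents, and Tmem150c, also called tentonin 3, slows the inactivation of Piezo channels.

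Of the 7 genes tested, 2 were differentially expressed between spinal levels, and both were upregulated in lumbar DRG. Asic1 was 1.71-fold and Asic3 1.60-fold lower in sacral than in lumbar ganglia, each in 9 of 10 embryos. The third ASIC subunit, Asic2, the touch transducer Piezo2 and its modulator Tmem150c did not pass the test. Piezo1 and Stom had higher mean values in sacral DRG, with adjusted p of 0.0854 and 0.118. No gene of the 7 passed a test of sex. Over all genes, 6.73% were called between levels and 4.03% were called lower in sacral DRG, against which the 2 of 7 are to be read.

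The 20 libraries held 19606261 to 39678956 recovered reads and 21202 to 23768 detected genes. The 2 mitochondrial ribosomal RNA genes took 17.8% to 61.1% of the reads, and their share was above 44% in both libraries of donors M5 and F7. The lumbar library of F8, at 43.2%, held the most reads and the most detected genes of the 20. Neuronal RNA was present in each library, since the 14 pan-neuronal genes summed to 547 to 2243 RPKM (reads scaled to gene length and library size). The listed spinal cord genes summed to between 1.08 and 3.64 RPKM. The listed erythroid genes summed to between 90.6 and 344 RPKM. The labels name no batch and no litter. The numbers that end the sample titles fall in separate series for males and females, and what they stand for is not stated. Anything tied to those numbers cannot be told apart from sex.

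Because RPKM is scaled by gene length, the 8 genes can be ranked. Piezo2 had the highest level, at 5.35 ± 0.51 on the log2 RPKM scale (mean ± SD, n = 20 libraries), which is a mean of 43.2 RPKM and 5466 to 30792 reads per library. Asic1 followed at 3.81 ± 0.66, Asic2 at 2.97 ± 0.62, Asic3 at 2.82 ± 0.58, Tmem150c at 2.62 ± 0.54 and Stom at 2.27 ± 0.39. Piezo1, the channel of blood vessels and red cells, stood at 0.86 ± 0.43, or 1.90 RPKM. Stoml3, which sets the sensitivity of touch receptors in the adult, was close to absent with 55 reads over the 20 libraries.

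Neighbours in this order were compared within each library, with no test. Piezo2 lay above Asic1, Asic1 above Asic2, Stom above Piezo1 and Piezo1 above Stoml3 in 20 of 20 libraries. The middle of the order was not resolved: Asic2 lay above Asic3 in 11 of 20 libraries, Asic3 above Tmem150c in 15 and Tmem150c above Stom in 14. Among neighbours, only Piezo1 and Stoml3 had ranges that did not overlap over the 20 libraries. The sacral library of donor F7 was the lowest of all 20 for Piezo2, Asic1, Asic2, Asic3 and Tmem150c and the highest for Stom.

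**Figure D1:**
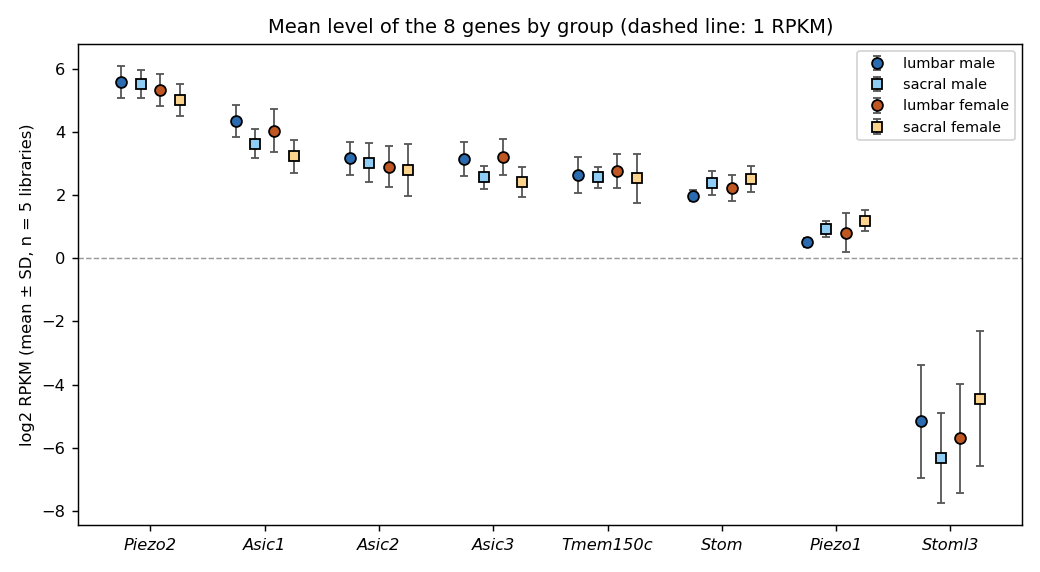
Mean level of each gene in log2 RPKM (vertical axis) for the 4 groups, with bars of 1 SD over 5 libraries; the dashed line marks 1 RPKM. Piezo2 lies highest in each group, Asic1 and Asic3 lie lower in both sacral groups than in both lumbar groups, and Stoml3 lies far below the line.

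Asic1 (ENSMUSG00000023017) encodes the ASIC subunit found most widely in central and peripheral neurons. It lies on the plus strand at chr15:99501149-99531561 (mm9), with 4498 exonic bases. In lumbar males its log2 RPKM was 4.50 in M1, 4.74 in M3, 3.50 in M5, 4.30 in M7 and 4.70 in M8. In sacral males it was 3.66 in M1, 3.69 in M3, 2.91 in M5, 4.198 in M7 and 3.64 in M8. Every male embryo thus had less Asic1 in its sacral ganglia, with M7 nearly level. In lumbar females the values were 4.76 in F3, 3.32 in F7, 3.33 in F8, 4.60 in F9 and 4.17 in F10. In sacral females they were 3.74 in F3, 2.41 in F7, 3.50 in F8, 3.09 in F9 and 3.35 in F10. Donor F8 was the exception, with a sacral value 0.17 above its lumbar value, and the lumbar and sacral ranges overlapped. The mean fell from 4.19 ± 0.59 in lumbar to 3.42 ± 0.50 in sacral DRG (SD, n = 10). This log2 difference of -0.77 ± 0.18 (SE, adjusted p = 0.0123, limma with donor block) rested on 26923 lumbar and 14536 sacral reads. Without the donor block, the adjusted p was 0.101.

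Asic3 (ENSMUSG00000038276) encodes the subunit that opens on slight acidification and is enriched in sensory neurons. It lies at chr5:23919269-23923652 (mm9, plus strand), with 1942 exonic bases. In lumbar males its log2 RPKM was 3.28 in M1, 3.45 in M3, 2.26 in M5, 3.01 in M7 and 3.65 in M8. In sacral males it was 2.58 in M1, 2.49 in M3, 2.02 in M5, 3.06 in M7 and 2.63 in M8. Here M7 was the exception, with a sacral value 0.04 above its lumbar value. In lumbar females the values were 3.83 in F3, 2.65 in F7, 2.53 in F8, 3.44 in F9 and 3.51 in F10. In sacral females they were 3.119 in F3, 1.80 in F7, 2.33 in F8, 2.33 in F9 and 2.45 in F10. All 5 female embryos had less Asic3 in sacral ganglia, and the ranges of the levels again overlapped. The mean fell from 3.16 ± 0.53 to 2.48 ± 0.41 (SD, n = 10), a log2 difference of -0.68 ± 0.16 (SE, adjusted p = 0.0138, limma with donor block). Without the donor block, the adjusted p was 0.112. A value lower in sacral DRG in at least 9 embryos was seen in 7.41% of all genes tested.

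Asic2 (ENSMUSG00000020704, chr11:80693671-81781959, minus strand, mm9) encodes a subunit that mainly modifies the channels formed by the others. Its log2 RPKM ran from 2.01 to 3.74 with a median of 3.21 in lumbar and from 1.41 to 3.64 with a median of 3.06 in sacral DRG. The ranges overlapped, and the value was lower in sacral DRG in 7 of 10 embryos. The log2 difference was -0.13 ± 0.20 (SE, adjusted p = 0.713), with a 95% interval from -0.55 to 0.28, so that a decrease as large as the estimate for Asic1 lay outside it.

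**Figure D2:**
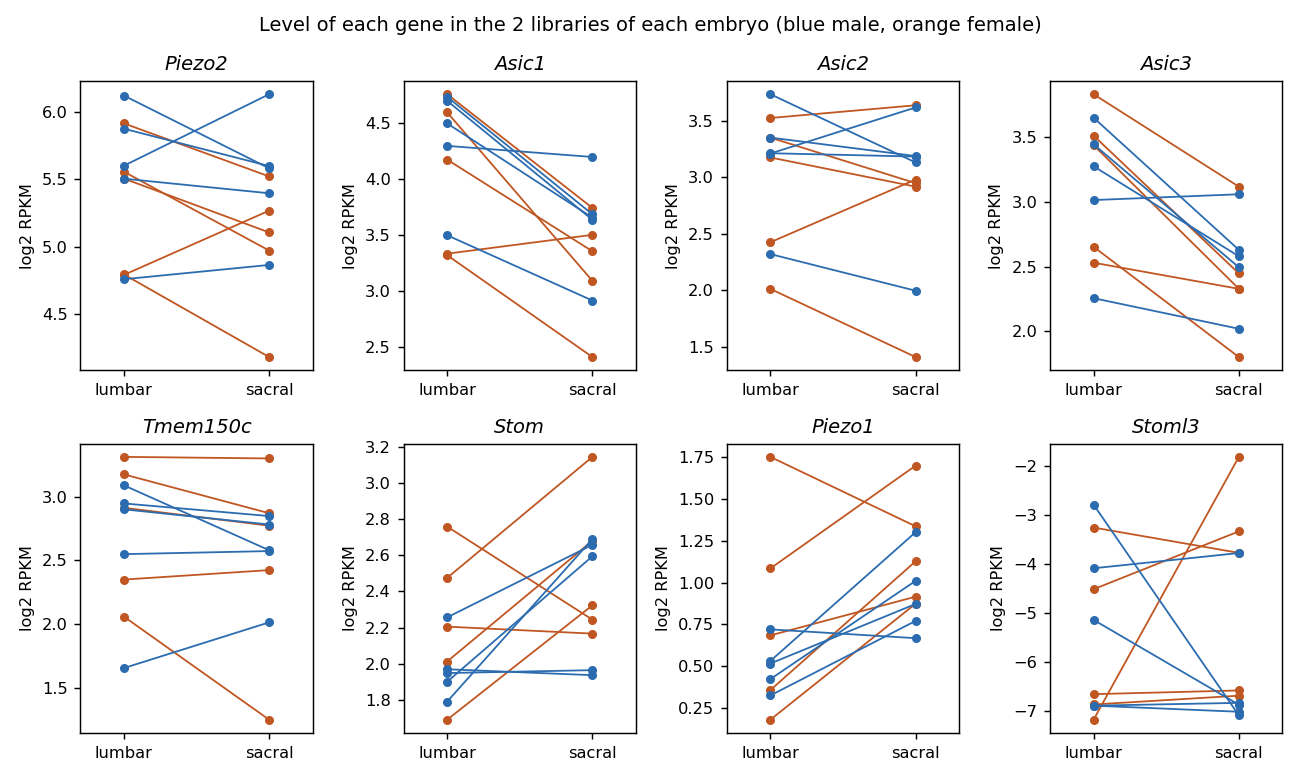
Log2 RPKM (vertical axes, 1 scale per gene) of the lumbar and the sacral library of each embryo, joined by a line, for the 8 genes. The lines of Asic1 and Asic3 fall in 9 of 10 embryos each, and those of Piezo1 rise in 8 and of Stom in 7. Every gene has lines in both directions.

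Within a library, the balance of the ASIC subunits can be read without regard to the scaling of that library. Asic1 exceeded Asic2 by 1.16 ± 0.16 on the log2 scale in lumbar and by 0.52 ± 0.28 in sacral DRG (mean ± SD, n = 10). This gap was smaller in the sacral library of 10 of 10 embryos, by 0.26 to 1.13, although F8 had more Asic1 there. Asic3 minus Asic2 went from 0.13 ± 0.24 to -0.42 ± 0.35 and was lower in 9 of 10 embryos, with M5 as the exception; this pair was chosen after the values were seen. Asic1 minus Asic3 was 1.03 ± 0.25 in lumbar and 0.94 ± 0.22 in sacral DRG, a change of -0.09 ± 0.24 and lower in 8 of 10 embryos. These are values with no test of their own.

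For Asic1 and Asic3, the genes called, and for Asic2, the subunit that was not, the 250 bases before the annotated start are shown as the promoter sequence beside the level difference. They were taken from the RefSeq promoter table of GRCm38.p6, in which 7 of the 8 genes were looked up and matched, and are written 5′ to 3′ on the strand of the gene. Capitals mark matches on either strand to the TATA box TATAAA, the GC box GGGCGG, the CCAAT box CCAAT, the RUNX site TGTGGT or the homeodomain core TAATTA. In that table Asic2 has 2 annotated starts, and Asic1 and Asic3 have 1 each. Where these starts lie within the mm9 gene spans given above was not examined, so other promoters of these genes may not be covered.
Asic1, chr15:99691974-99692223, plus strand: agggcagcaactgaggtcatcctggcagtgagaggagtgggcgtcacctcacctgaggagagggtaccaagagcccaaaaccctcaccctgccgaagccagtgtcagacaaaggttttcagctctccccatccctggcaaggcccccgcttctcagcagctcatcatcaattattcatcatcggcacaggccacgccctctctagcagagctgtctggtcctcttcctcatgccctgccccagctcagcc
Asic3, chr5:24413201-24413450, plus strand: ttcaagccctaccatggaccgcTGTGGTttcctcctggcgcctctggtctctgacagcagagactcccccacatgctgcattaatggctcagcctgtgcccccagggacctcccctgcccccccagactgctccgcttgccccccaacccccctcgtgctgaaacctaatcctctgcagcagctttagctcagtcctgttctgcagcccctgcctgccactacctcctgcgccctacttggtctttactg
Asic2 start 1, chr11:81968397-81968646, minus strand: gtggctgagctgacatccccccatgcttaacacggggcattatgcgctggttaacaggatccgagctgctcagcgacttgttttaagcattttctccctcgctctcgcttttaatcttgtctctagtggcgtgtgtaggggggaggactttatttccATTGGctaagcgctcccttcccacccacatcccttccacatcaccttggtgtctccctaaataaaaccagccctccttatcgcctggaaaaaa
Asic2 start 2, chr11:81152904-81153153, minus strand: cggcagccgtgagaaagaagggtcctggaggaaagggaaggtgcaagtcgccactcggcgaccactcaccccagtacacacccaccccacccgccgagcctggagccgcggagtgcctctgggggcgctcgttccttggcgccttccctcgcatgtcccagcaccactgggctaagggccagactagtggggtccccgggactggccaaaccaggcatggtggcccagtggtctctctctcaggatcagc
The Asic1 window held none of these 5 motifs. The Asic3 window held 1 match to the RUNX site, 228 bases before the start, which 14.0% of the 32851 windows in the table also hold. The first Asic2 window held 1 match to the CCAAT box, 93 bases before the start, as did 33.8% of windows, and the second held none of the 5. The E-box CANNTG, present in 66.2% of windows and not capitalised, was found 2 times for Asic1, 1 time for Asic3 and not for Asic2. GC content was 59.2% for Asic1, 61.6% for Asic3 and 51.2% and 66.4% for the windows of Asic2, against a median of 52.4%. No motif of the 5 was shared by Asic1 and Asic3 in these windows.

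Piezo2 (ENSMUSG00000041482) ran from 4.76 to 6.12 log2 RPKM with a median of 5.53 in lumbar and from 4.18 to 6.13 with a median of 5.33 in sacral DRG. The ranges overlapped almost wholly. It was lower in sacral DRG in 7 of 10 embryos, with M5, M7 and F8 in the other direction, and the log2 difference was -0.18 ± 0.16 (SE, adjusted p = 0.499; 95% interval -0.51 to 0.15).

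Piezo1 (ENSMUSG00000014444), at chr8:125005598-125075229 on the minus strand (mm9), ran from 0.18 to 1.75 log2 RPKM in lumbar DRG with a median of 0.52. In sacral DRG it ran from 0.67 to 1.70 with a median of 0.96. The highest lumbar value, 1.75 in F8, stood above every sacral value, while 8 of 10 embryos had more Piezo1 in their sacral ganglia. The log2 difference was 0.40 ± 0.14 (SE, adjusted p = 0.0854; 95% interval 0.11 to 0.69). Without donor F8, whose difference was the lowest, the adjusted p was 0.0118 (limma), on a difference of 0.50. F8 was the only 1 of 10 donors whose removal gave a call, and adjusted p reached 0.205 when another was removed. Without the donor block, the adjusted p was 0.275. Piezo1 shares 2441 exonic bases with Ctu2 on the opposite strand, whose mean level was -0.27 log2 RPKM, and whether the counting used strand is not stated. Within a library, Piezo2 exceeded Piezo1 by 4.78 ± 0.83 in lumbar and 4.204 ± 0.72 in sacral DRG (log2, mean ± SD, n = 10), a smaller gap in 9 of 10 embryos with F8 as the exception.

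Tmem150c (ENSMUSG00000050640, chr5:100506891-100588827, minus strand, mm9) ran from 1.66 to 3.31 log2 RPKM in lumbar and from 1.25 to 3.30 in sacral DRG, with medians of 2.91 and 2.68. Its log2 difference was -0.15 ± 0.17 (SE, adjusted p = 0.611; 95% interval -0.52 to 0.21), and 7 of 10 embryos were lower in sacral DRG. It shares 212 exonic bases with 5830403M04Rik on the opposite strand.

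Stom (ENSMUSG00000026880, chr2:35169506-35192529, minus strand, mm9), the stomatin of red cells and many other cells, ran from 1.69 to 2.76 log2 RPKM in lumbar and from 1.94 to 3.14 in sacral DRG, with medians of 1.99 and 2.46. It was higher in sacral DRG in 7 of 10 embryos, and F8 was again lower there, by 0.51. The log2 difference was 0.34 ± 0.13 (SE, adjusted p = 0.118; 95% interval 0.07 to 0.61). Without donor F8, whose difference was the lowest, it was 0.44 (adjusted p = 0.0277, limma). Removal of F8 alone of the 10 donors gave a call, and adjusted p reached 0.273 when another was removed. Without the donor block, the adjusted p was 0.303.

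Stoml3 (ENSMUSG00000027744, chr3:53292649-53312424, plus strand, mm9) had 25 reads over the 10 lumbar and 30 over the 10 sacral libraries. It had 0 reads in 11 of 20 libraries, where a count of 0 allows up to 3, and more than 3 reads in 5 libraries. The largest counts were 15 reads in sacral F9 and 9 each in lumbar M3 and lumbar F8, so no group held it evenly. An exact sign-flip test over 10 embryos gave p = 0.943 (two-sided), and a difference between levels was not detectable at this depth.

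The median log2 difference of the 7 tested genes was -0.15, beside -0.05 for all genes tested. At an unadjusted p under 0.05 there were 4 of the 7 (Asic1, Asic3, Piezo1 and Stom) and 3501 of all 14529.

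**Figure D3:**
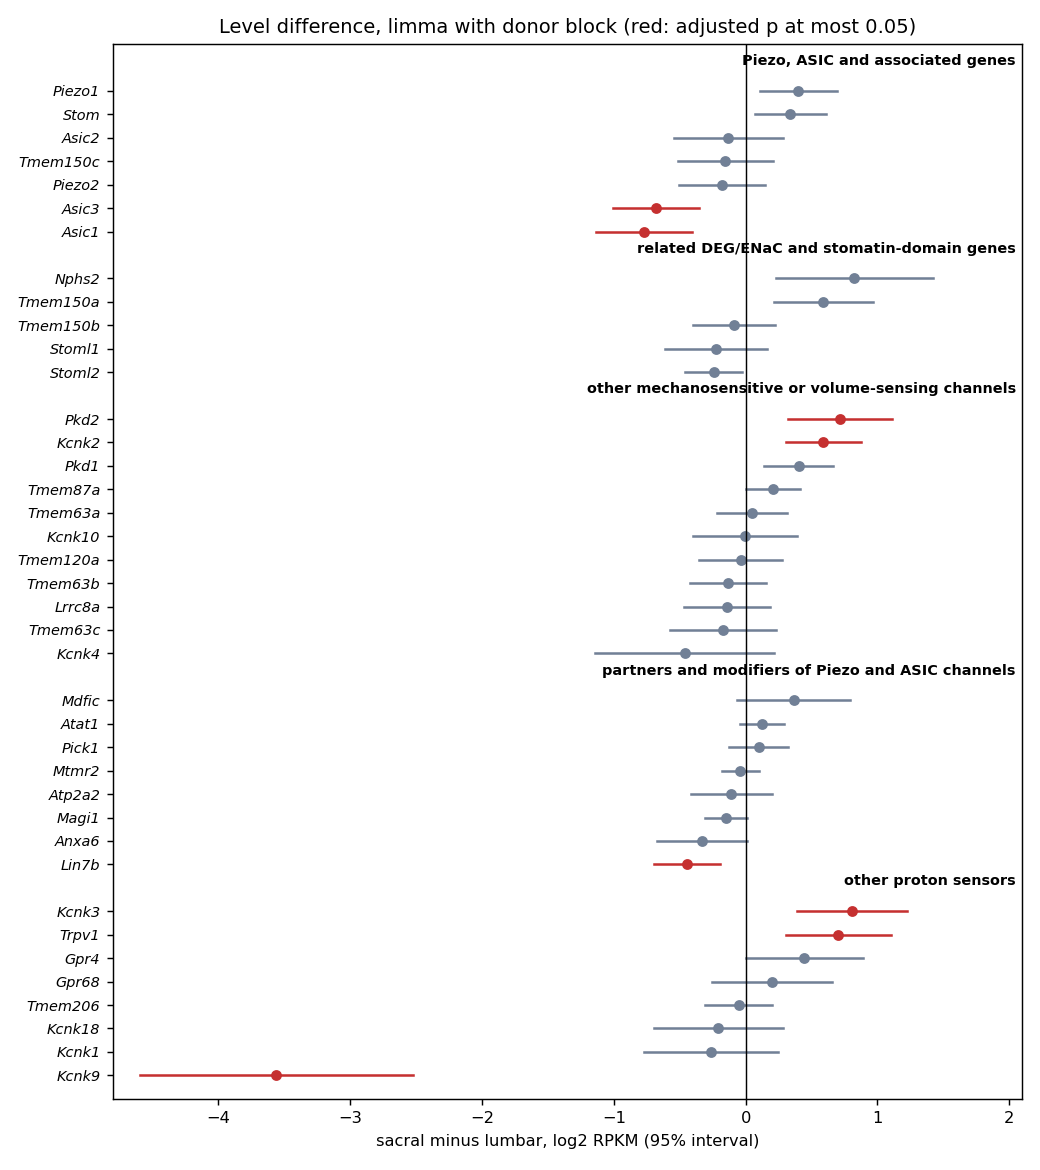
Sacral minus lumbar log2 RPKM (horizontal axis) from limma with its 95% interval, for the 7 tested genes and the 32 tested genes of the related lists; red marks an adjusted p of at most 0.05. Asic1 and Asic3 are the only red points of the first block, both left of 0. Kcnk9, which passed the filter through its lumbar level alone, lies farthest from 0 at -3.56.

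In each sex alone, no gene of the 7 passed the test in males, where 0.461% of all genes were called, or in females, where 0.881% were. Asic1 differed by -0.73 ± 0.25 in males (SE, adjusted p = 0.210, limma) and by -0.82 ± 0.25 in females (adjusted p = 0.110). Asic3 differed by -0.57 ± 0.22 in males (adjusted p = 0.285) and by -0.79 ± 0.22 in females (adjusted p = 0.0887). The direction was thus shared by the sexes, and the test of the difference between them gave an interaction of -0.09 ± 0.35 for Asic1, -0.22 ± 0.31 for Asic3 and -0.24 ± 0.32 for Piezo2, each with an adjusted p of 0.995. The background for the interaction was 0 of 14529 genes, or 0%, with 470 genes at an unadjusted p under 0.05.

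Between the sexes, no gene of the 7 was called in lumbar DRG, where 0.33% of all genes were, or in sacral DRG, where 1.01% were. The widest differences in each direction, female minus male, were -0.31 for Asic1 and 0.31 for Piezo1 in lumbar DRG, with adjusted p of 0.858 and 0.801 (limma). In sacral DRG they were -0.50 for Piezo2 and 0.27 for Piezo1, with adjusted p of 0.383 and 0.604. The SE of these values was 0.24 to 0.31, and no gene of the 7 had an unadjusted p under 0.05 in either comparison.

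Other genes of mechanosensing and acid sensing were taken from 4 lists of 44 genes, of which 32 were tested and 6 were called, 4 higher and 2 lower in sacral DRG, against 2.7% and 4.03% of all genes. The 2 lower include Kcnk9, which passed the filter through its lumbar level alone. Among other mechanosensitive or volume-sensing channels, 2 of 11 tested were called and both were upregulated in sacral DRG. Kcnk2 (TREK-1), a stretch-activated potassium channel, went from 1.39 ± 0.36 in lumbar to 1.98 ± 0.33 log2 RPKM in sacral DRG (SD, n = 10), a difference of 0.59 (adjusted p = 0.0146). Pkd2 (polycystin-2), a cation channel of primary cilia, rose by 0.72 in 10 of 10 embryos (adjusted p = 0.0286), but this call was lost without any 1 of 5 donors (M1, M5, M8, F9 or F10), with an adjusted p of up to 0.0928 (without F10), and with no filter (0.0806). For Kcnk2 the adjusted p was 0.0542 without donor M5, 0.0539 without F10 and 0.0517 with donor as a fixed term. The most abundant genes of this list were not called: Lrrc8a, a subunit of the volume-regulated anion channel, differed by -0.14, and the osmosensitive channel genes Tmem63b and Tmem63c by -0.13 and -0.17.

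Among other proton sensors, 3 of 8 tested were called, against 6.73% of all genes tested. Trpv1, the heat, capsaicin and acid receptor of nociceptors, rose from 1.65 ± 0.48 to 2.35 ± 0.58 log2 RPKM (SD, n = 10), a difference of 0.70 in 9 of 10 embryos (adjusted p = 0.0322). Kcnk3 (TASK-1), an acid-inhibited potassium channel, rose by 0.81 in 9 of 10 embryos (adjusted p = 0.0212). Its relative Kcnk9 (TASK-3) went the other way, from 0.33 ± 1.06 to -3.23 ± 1.22 log2 RPKM, lower in 10 of 10 embryos, a difference of -3.56 (adjusted p = 0.000272). Kcnk9 rested on 0 to 92 reads per library. It passed the filter of 1 RPKM through its lumbar level alone, so its entry into the test depended on the level where it was high. Its difference ran from -3.97 to -3.21 over 22 alternatives, among them another value for a count of 0. The call of Trpv1 was lost without any 1 of 6 donors, with an adjusted p of up to 0.0989 (without M5), and with donor as a fixed term (0.0607), and that of Kcnk3 without M5 (0.0651) or F10 (0.064). In the main fit, 2 of these proton sensors were called higher and 1 lower in sacral DRG, beside the lower Asic1 and Asic3. The limits given above apply to these calls of Trpv1, Kcnk3 and Kcnk9.

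Among partners and modifiers, 1 of 8 tested was called, against 6.73% of all genes tested. Lin7b, a scaffold protein that binds Asic3, fell by 0.45 in 9 of 10 embryos (adjusted p = 0.0304), with 58 exonic bases shared with Mtag2 on the opposite strand. Its call was lost without any 1 of 6 donors, with an adjusted p of up to 0.0928 (without F7), and with donor as a fixed term (0.0598), and its adjusted p rose to 0.684 with libraries centred on the pan-neuronal genes. Without the donor block, the calls of Kcnk2, Pkd2, Trpv1, Kcnk3 and Lin7b were lost, with adjusted p from 0.0639 to 0.168. The most abundant members of this list were Anxa6, an annexin that binds Piezo2, with a difference of -0.33 (adjusted p = 0.220), the calcium pump gene Atp2a2 with -0.11 (adjusted p = 0.683) and the lipid phosphatase gene Mtmr2 with -0.04 (adjusted p = 0.744).

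Of the related DEG/ENaC and stomatin-domain genes, 0 of 5 tested were called by limma, with 3 at an unadjusted p under 0.05. Over all genes tested, 6.73% were called and 3501 of 14529 had an unadjusted p under 0.05. Tmem150a, a relative of Tmem150c, differed by 0.59 (adjusted p = 0.0537) and passed the threshold under 7 of 23 alternatives, among them voom on recovered reads (0.0412) and the fit without donor F8 (0.0269). The stomatin-like genes Stoml1 and Stoml2 differed by -0.22 and -0.24 (adjusted p = 0.474 and 0.163). Genes that stayed below the filter included Asic4 (159 lumbar and 145 sacral reads), Trpv4 (279 and 267) and Asic5, which had 1 read in all. Of 13 such genes, Stoml3 included, only Gpr132, an acid-sensitive receptor of immune cells, had a sign-flip p under 0.05 (exact p = 0.0195), on 0 lumbar and 18 sacral reads. With blanks at its lowest measured value, that p was 0.125.

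Cell-type lists moved between the levels too, and their part in the differences was not tested. Beside the counts called in each list, 4.03% of all genes tested were called lower and 2.7% higher in sacral DRG. The 14 pan-neuronal genes had a median embryo difference of -0.27 ± 0.40 (mean ± SD over 10 embryos, log2). It was lower in sacral DRG in 8, with M5 and F8 in the other direction. Genes of large myelinated neurons moved by -0.49 ± 0.40, lower in 9 of 10 with F8 as the exception. Of the 14 tested, 6 were called lower and 1 higher. Their summed level ran from 795 to 2075 RPKM in lumbar and from 353 to 1042 RPKM in sacral DRG. Genes of small nociceptive neurons moved by -0.21 ± 0.40, with 1 of 12 called in each direction. With each library centred on its pan-neuronal genes, the Asic1 difference was -0.42 (adjusted p = 0.00871) and that of Asic3 -0.33 (adjusted p = 0.0229), on a scale on which the median of all genes moved from -0.05 to 0.30. On that scale Piezo2, Asic2 and Tmem150c had positive values.

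Schwann cell and satellite glia genes moved by -0.45 ± 0.16, lower in 10 of 10 embryos, with 6 of 12 called lower, against 4.03% of all genes. Their summed levels were 405 to 560 RPKM in lumbar and 261 to 422 RPKM in sacral DRG. Beside Piezo1 and Stom, genes of fibroblasts and meninges moved by 0.44 ± 0.34, higher in 9 of 10 with F8 as the exception. Of these genes, 6 of 10 were called higher. Their summed level was 238 to 526 RPKM in lumbar and 325 to 689 RPKM in sacral DRG. Cartilage genes moved by 0.75 ± 0.48, higher in 9 of 10 with 2 of 4 called higher, on summed levels of 9.39 to 25.0 RPKM and 12.4 to 50.3 RPKM. Endothelial genes moved by 0.07 ± 0.29 with 2 of 6 called higher, against 2.7% of all genes, although their median was lower in 6 of 10 embryos. Erythroid genes moved by 0.21 ± 0.38 with 0 of 6 called. Macrophage genes moved by 0.20 ± 0.45 with 1 of 5 called higher. Skeletal muscle genes moved by -0.32 ± 1.29 with 0 of 11 called, and the 1 tested spinal cord gene by 0.29 ± 0.34. Of the listed markers, Ahsp of the erythroid list and Sox1 of the spinal cord list had no value.

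**Figure D4:**
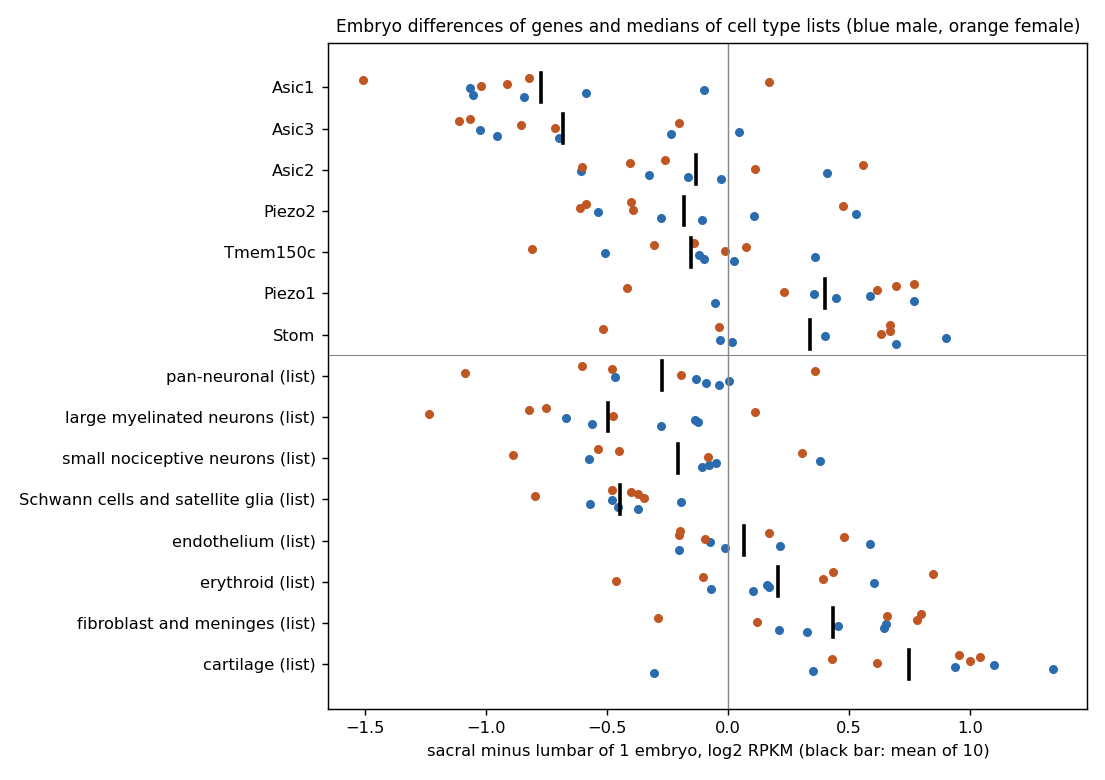
Sacral minus lumbar log2 RPKM of each embryo (points, horizontal axis) for 7 genes above the line and for the medians of 8 cell-type lists below it; black bars are means of 10 embryos. Asic1, Asic3 and the list of large myelinated neurons each lie left of 0 in 9 of 10 embryos, Piezo1 lies right of 0 in 8 and Stom in 7.

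For each tested gene, the genes of most similar pattern were found by Pearson's r over the 20 libraries after a linear fit on the mitochondrial ribosomal RNA share was removed, among 13990 genes. These are descriptions over libraries that share donors, depth and cell composition. Spinal level was not removed before r was taken, so genes similar to a called gene tend to carry its level difference. The genes most like Asic1 were the cadherin genes Cdh9 (r = 0.947) and Cdh12 (r = 0.932), which were lower in sacral DRG by 1.53 and 2.04 on the log2 scale. Those most like Asic3 were Cacng5 (r = 0.900), an auxiliary channel subunit, and Dync1i1 (r = 0.888), a dynein chain, with differences of -1.34 and -0.62. All 4 passed the level test with adjusted p from 4.63e-07 to 0.0287 (limma). Since they were picked on the same libraries by likeness to called genes, these calls are no separate support.

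Piezo2 was followed most closely by Atp2b1 (r = 0.976), a calcium pump, and Lifr (r = 0.972), a cytokine receptor, neither of which was called. For Asic2 these were the sodium channel subunit gene Scn3b (r = 0.934) and Syt11 (r = 0.920), and for Tmem150c the synaptic vesicle gene Syp (r = 0.919) and Pcsk1n (r = 0.899), with none called. Piezo1 was most like Ptbp1 (r = 0.912), a splicing regulator, and Heg1 (r = 0.903), an endothelial membrane protein. Stom was most like Smad3 (r = 0.874) and Antxr1 (r = 0.872), of which Antxr1 was called higher in sacral DRG by 0.51 (adjusted p = 0.0203, limma).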

How the data were processed

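The 8 genes, the 4 related lists and the cell-type lists were chosen with earlier results of these data known. RNA was amplified with the NuGEN Ovation kit, tagged with Nextera XT and sequenced on a HiSeq2500. The authors aligned reads to mm9 with Subread, counted them with featureCounts and deposited log2 RPKM values after TMM scaling and voom (limma 3.26.9 and edgeR 3.12.1 in the submitters' notes). The strand setting was not given in the sources used here.

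Of 37620 genes, 29049 had a value. Whole reads were recovered with GENCODE M1 exon lengths, within 0.05 of a whole number for 98.2% to 98.4% of values. A blank was read as 0 reads and set to the log2 RPKM of 0.5 reads. For the 725 genes with no recovered reads, a blank was set below the gene's lowest measured value instead. Libraries have no molecular identifiers, so a limit of 3 reads for a count of 0 covers counting error only.

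limma 3.58.1 (R 4.3.3) was fitted to the log2 RPKM values of all 20 libraries with 4 group means, donor as a block (correlation 0.342), a mean-variance trend and Benjamini-Hochberg adjustment over 14529 genes with a group mean of at least 1 RPKM, at a threshold of 0.05. The study ran voom on counts and filtered on CPM; here the deposited log2 values and RPKM were used, and voom on recovered reads was an alternative. Both libraries of a donor come from 1 embryo, which pairs them; deviations from the group means correlated by -0.17 (M8) to 0.68 (M5) within a donor. P-values were two-sided. Genes below the filter were compared by exact sign-flip tests, unadjusted (smallest possible p = 0.00195). The procedure was tested on simulated data.

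Named genes were the 8 genes, the called genes of the related lists, and the 3 of highest level of a list with fewer than 3 called; similar genes were the 2 of highest r. Gene coordinates are mm9, promoter coordinates GRCm38.p6. One promoter, that of Piezo2, is not reported here. Transcripts of the 8 genes shared 0 stretches of 50 bases.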

Additional observations from a re-analysis of the deposited data

Results flagged for a closer look

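The value of Stoml3 in the sacral library of donor M5, -3.78 log2 RPKM, stood apart from the other 4 sacral males, of which the nearest was at -6.83. The gap was 0.923 of the group's range, above the critical value of 0.71. The value rests on 3 reads, against 0 in each of the other 4, so the gap is that between a count of 3 and the value set for 0 reads. It was the only such library among 32 groups examined. At this critical value chance flags about 1 group in 20, so 1 flag among 32 is no excess.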

How the results depend on the processing

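The Asic1 and Asic3 level calls held under 22 of 23 alternatives each, the exception being the fit without the donor pairing (-0.77 and -0.68, adjusted p 0.101 and 0.112), in which 0 of the 7 genes were called. With a donor left out, adjusted p was 0.00223 to 0.0378 for Asic1 and 0.0044 to 0.0485 for Asic3 (limma); with donors M5 and F7 both left out, an alternative added after the data were seen, it was 0.0239 and 0.0354. Piezo1 and Stom passed the threshold with sample weights (0.48 and 0.39), with libraries centred on pan-neuronal genes (0.75 and 0.69) and without female donor F8; over the donors left out they ran from 0.35 to 0.50 and from 0.28 to 0.44. In these 3 settings 4 of the 7 genes were called (2 to 4 over the donors). A fixed donor term, the other form of the replicate block, gave the same level calls for the 7 genes. Centring on pan-neuronal genes reversed uncalled values to 0.17 for Piezo2, 0.22 for Asic2 and 0.20 for Tmem150c, to 0.13 for Stoml1, 0.11 for Stoml2, 0.22 for Tmem63b, 0.18 for Tmem63c, 0.21 for Lrrc8a, 0.019 for Anxa6, 0.31 for Mtmr2 and 0.24 for Atp2a2 (adjusted p = 0.0399), and the interactions to 0.10 for Piezo2, 0.25 for Asic1 and 0.12 for Asic3; quantile normalization gave 0.031 for Mtmr2 and 0.023 for Atp2a2. The Asic1 interaction was 0.0089 with the mitochondrial rRNA covariate and -0.34 to 0.083 with a donor left out.

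Of the other called genes, Kcnk9, which passed the filter through its lumbar level alone, kept its call under 22 of 22 alternatives. Kcnk2 kept its call under 19 of 23, Kcnk3 under 18 of 22, Pkd2 under 15 of 23, Trpv1 under 13 of 23 and Lin7b under 11 of 22. The fit without pairing ended the last 5 (adjusted p 0.0639 to 0.168); the fixed donor term gave 0.0517 for Kcnk2, 0.0607 for Trpv1 and 0.0598 for Lin7b. Donors whose removal ended a call were M5 and F10 for Kcnk2 and Kcnk3, M1, M5, M8, F9 and F10 for Pkd2, M3, M5, M7, F3, F7 and F9 for Trpv1, and M1, M5, M7, F3, F7 and F9 for Lin7b.

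Genes called between levels, 978 in all, were 154 without the pairing, 2998 with sample weights, 507 without a filter, 3248 (96.2% higher) with pan-neuronal centring, 261 without M5 and F7, and 401 to 1594 with a donor left out. In males, 67 became 21 without the pairing, 43 with the fixed donor term, 316 with weights, 44 with quantile normalization, 25 without M5 and F7 and 23 to 133 over donors, with 2 of the 7 genes called with weights and 1 with the rRNA covariate. In females, 128 became 16 without the pairing, 1871 with weights, 48 without a filter, 215 with a filter of 4 RPKM, 1570 with pan-neuronal centring, 29 without M5 and F7 and 27 to 731 over donors, with 3 of the 7 called with weights, 1 with the 4 RPKM filter, 1 with pan-neuronal centring, 2 with the rRNA covariate and 0 to 2 over donors. Sex calls in lumbar DRG, 48, became 197 with weights, 73 centred on all tested genes, 91 with quantile normalization, 228 with the rRNA covariate and 14 to 81 over donors. In sacral DRG, 147 became 751 with weights, 94 without a filter, 275 centred on all tested genes, 346 with quantile normalization, 25 with pan-neuronal centring, 705 with the rRNA covariate, 329 without M5 and F7 and 55 to 443 over donors. Interaction calls were 0 under all 23 alternatives. The cause of these changes was not tested. Sex contrasts have no value with a fixed donor term, and Piezo1 none with the 4 RPKM filter. Depth limits Stoml3 and the other genes below the filter.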
